A study of Mus musculus with 10 samples.

Results

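The genes described here are the chromosome 9 neighbors of Zbtb38: 37 genes that lie within 10 Mb of Zbtb38 on mouse chromosome 9, chosen by position and with Zbtb38 itself left out. All 37 were found among the 22380 genes quantified, each with 1 gene identifier. They are a selection of the 149 other quantified genes in that window, of which 112 are not members. Zbtb38 itself (ENSMUSG00000040433.16) is transcribed from the minus strand of chr9:96682770-96752831, and all coordinates given here are those of GRCm38. Of the members, 9 lie at lower coordinates, toward the centromere, and 28 lie at higher coordinates, toward the telomere. Their gene bodies are between 51.153 kb (Rasa2) and 8.65 Mb (Atp2c1) away.

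RNA-seq was performed on NP-binding germinal center B cells, which are activated B cells that divide and mutate their antibody genes, sorted 2 weeks after immunization with NP-OVA in alhydrogel. ZBTB38 WT mice carried Zbtb38fl/fl without Cre (n = 2 libraries), ZBTB38 HET mice carried Zbtb38fl/+ with Vav-Cre (n = 2) and ZBTB38 KO mice carried Zbtb38fl/fl with Vav-Cre (n = 6), and all were labelled C57Bl6/N. Thus WT and KO mice had 2 floxed alleles and HET mice had 1, and HET and KO mice shared Vav-Cre, which WT mice lacked. The floxed allele places loxP sites around exon 3, which holds the whole coding sequence, and Vav-Cre is active mainly in hematopoietic cells. It descends from 1 founder made in C57Bl6/J zygotes and was backcrossed to C57Bl6/N. How much flanking DNA of the founder the mice kept was not examined. The age of the mice is not given in the sources used here.

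Genes that flank a targeted allele are inherited with it. They can therefore carry sequence of the strain in which the allele was made, and loxP sites, a deletion or a lost local regulator can act on them in cis. ZBTB38 is a zinc finger transcription factor that binds methylated CpG sites, and CpG-rich promoters are typically unmethylated in cells that use them. The comparison of WT with KO holds the floxed allele constant and changes the deletion and Cre. HET against KO holds Cre constant, and HET against the mean of WT and KO sets 1 floxed allele against 2, though Cre is present in all HET and KO mice and in no WT mice.

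Libraries held between 26612431 and 41059082 estimated counts. The targeted gene matched the labels. Zbtb38 was at 161.7 and 151.8 CPM, which are counts scaled to library size and composition, in the WT libraries, at 117.4 and 105.8 in the HET libraries, and between 18.6 and 50.3 in the KO libraries with a median of 30.3. These are sums over the whole gene, and reads were not split by exon here. For the floxed exon alone, the paper reports a complete loss of transcripts in KO mice. The log2 difference of Zbtb38 was 2.31 (SE 0.274) between WT and KO (edgeR adjusted p = 0.0734) and 2.08 (SE 0.232) between the pooled WT and HET libraries and KO (adjusted p = 0.0104). Germinal center B cell markers were present in every library, with a summed level over 10 genes from 5993 to 8431 CPM and none at 0. Correlated with the others across genes, KO 6 (median r = 0.954) and KO 1 (0.971) stood apart from the remaining libraries (0.978 to 0.983). Of the 31 members with a mean of at least 1 CPM, KO 1 was the lowest library for 9 and the highest for 5, and KO 6 the lowest for 8 and the highest for 6. The shares over all genes are those of the genes tested in HET against KO, a set chosen by another rule than the 31 members. In that set KO 1 was lowest for 15.6% and highest for 18.6%, and KO 6 lowest for 21.9% and highest for 19.7%. The 4 Y-linked genes summed to more than 100 CPM in both WT libraries, in neither HET library and in 3 of the 6 KO libraries, so a fit with a term for this level was added.

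The promoters of the members were rich in CpG beside all promoters of a reference table. In the RefSeq promoter table for GRCm38.p6, 36 of the 37 members had an entry, and Dbr1 did not. The letters CG occurred a median of 21 times (range 1 to 38) in the 250 bases before the members' starts, against a median of 6 in all 32851 promoters of that table (quartiles 2 and 16), and 23 of the 36 members were at or above the upper quartile. A CG was present in 92.1% of all promoters. The table was not limited to genes expressed in these cells, so the difference was not shown to be particular to these neighbors. The entry used for Tfdp2 starts 62368 bases from the start of its main transcript. Nck1 and Ppp2r3a had 1 each, and Cep63 had 38. The stretches shown here belong to members that were at an unadjusted p under 0.05 when the pooled controls were compared with KO, and they are limited to bases that fall in no annotated exon. They are written 5′ to 3′ on the strand of the gene in GRCm38 coordinates, with CG in capitals because it is the dinucleotide ZBTB38 recognizes when methylated. Methylation was not measured in these samples. The corresponding stretch of Msl2 lay entirely within an annotated exon and is not shown. The stretches of Atp2c1 and Cep63 lie inside the annotated bodies of these genes (Cep63 at chr9:102584588-102626534). That of Cep63 also lies inside the 250 bases before the start of Anapc13, which is on the opposite strand.

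Atp2c1, chr9:105495134-105495366, minus strand: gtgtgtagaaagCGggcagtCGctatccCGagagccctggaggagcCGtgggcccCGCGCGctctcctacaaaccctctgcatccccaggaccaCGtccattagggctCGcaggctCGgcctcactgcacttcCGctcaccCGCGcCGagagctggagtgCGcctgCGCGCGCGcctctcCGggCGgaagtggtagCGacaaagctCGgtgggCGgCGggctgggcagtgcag
Rasa2, chr9:96631618-96631753, minus strand: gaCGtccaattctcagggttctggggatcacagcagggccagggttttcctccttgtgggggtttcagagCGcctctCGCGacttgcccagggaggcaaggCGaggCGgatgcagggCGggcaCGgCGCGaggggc
Topbp1, chr9:103305083-103305214, plus strand: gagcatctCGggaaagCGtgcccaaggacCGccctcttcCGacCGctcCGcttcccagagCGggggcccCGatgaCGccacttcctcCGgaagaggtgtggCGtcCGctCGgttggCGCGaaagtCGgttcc
Cep63, chr9:102626125-102626262, minus strand: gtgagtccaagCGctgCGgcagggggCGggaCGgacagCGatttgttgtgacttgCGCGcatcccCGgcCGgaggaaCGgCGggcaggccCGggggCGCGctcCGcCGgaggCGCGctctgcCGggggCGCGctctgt

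The printed stretch of Atp2c1 holds 25 CG and spans 233 bases, that of Cep63 holds 21 in 138 bases, that of Topbp1 holds 16 in 132 bases, and that of Rasa2 holds 10 in 136 bases.

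The members differed widely in level. On the TPM scale, which accounts for transcript length, medians over the 10 libraries ran from 0 to 172 TPM. Anapc13, a small subunit of the anaphase-promoting complex that drives cells out of mitosis, was the most abundant. It was at 155 and 157 TPM in WT, at 150 and 191 in HET, and between 167 and 242 in KO with a median of 175. Atp1b3, a beta subunit of the sodium-potassium pump, was at 168 and 147 TPM in WT, 149 and 171 in HET, and 116 to 158 in KO with a median of 148. Copb2, a subunit of the COPI coat of Golgi vesicles, was at 106 and 94.0 TPM in WT, 128 and 120 in HET, and 61.5 to 111 in KO with a median of 101. Next in order of median TPM were Cdv3 (93.9), Topbp1 (90.2), Faim (85.8), U2surp (79.6) and Atp2c1 (55.0), and the library ranges of neighbours in this order overlapped.

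**Figure D1:**
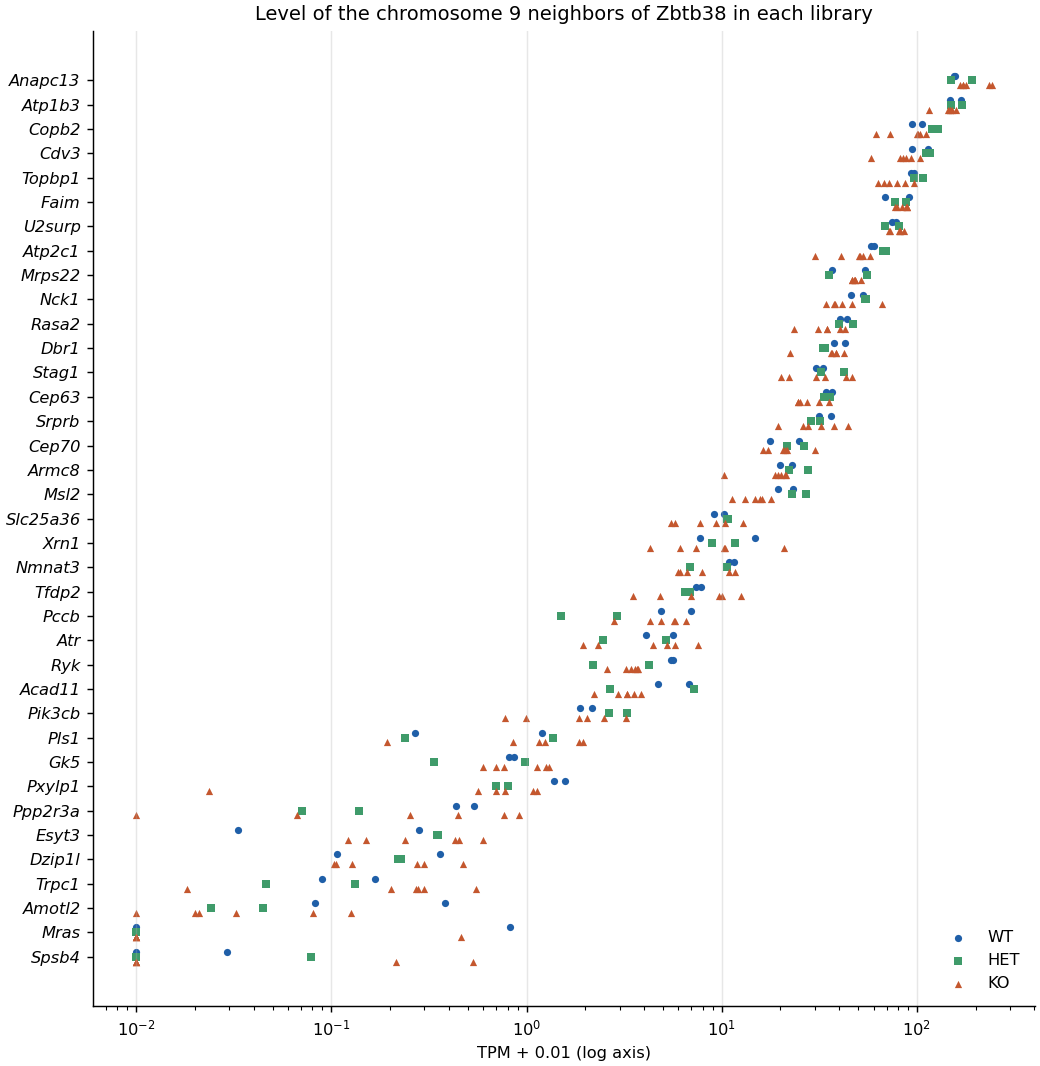
TPM of the 37 members in each of the 10 libraries, with genes in order of their median and 0.01 added so that values of 0 can be drawn on the log axis. Circles are WT (n = 2), squares HET (n = 2) and triangles KO (n = 6), and the genes run from Anapc13 (median 172 TPM) to Mras and Spsb4 (median 0).

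At the other end, 3 members were at or near 0. Spsb4, an adaptor of a ubiquitin ligase, lies 190.651 kb from Zbtb38 and had 0 counts in 6 libraries. It was at 0 and 0.019 TPM in WT, at 0.069 and 0 in HET, and between 0 and 0.52 in KO with a median of 0. Mras, a small GTPase of the Ras family, had 0 counts in 8 libraries, with 0.82 TPM in WT 2 and 0.45 in KO 3 as the exceptions. Amotl2, a cell junction protein, was at 0.37 and 0.072 TPM in WT, 0.035 and 0.014 in HET, and 0 to 0.12 in KO with a median of 0.017. A count of 0 in a library allows up to 3 counts, a limit that covers counting error only, so absence could not be shown at this depth. In all, 30 of the 37 members had more than 3 counts in every library, and Spsb4, Mras and Amotl2 did not pass the filter on low counts for the comparison of pooled controls with KO.

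Scatter among the KO libraries also differed between members. The coefficient of variation across the 6 KO libraries was 7.9% for Rasa2, 9.9% for Cep63 and 10.3% for Msl2, and 48.5% for Atr, the kinase that signals stalled replication, which ranged from 14.4 to 50.8 CPM in KO. Differences of the size given here would be harder to detect for Atr than for Rasa2.

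No member passed the study's threshold, an adjusted p under 0.1, in edgeR's quasi-likelihood test in any of the 5 comparisons. In WT against KO, 0 of 37 members passed, beside 0.00704% of all 14203 genes tested, which is Zbtb38 alone. In WT and HET against KO, 0 of the 34 members tested passed, beside 0.00749% of 13347 genes, again Zbtb38 alone. In HET against KO, in WT against HET and in HET against the mean of WT and KO, 0 of 37 members passed, beside 0.00697% of 14354 genes in each. The gene called in these last 3 was Hnrnpll on chromosome 17 (log2 difference of -9.67 for HET against KO, SE 1.10, adjusted p = 0.0496). Since no member passed, the values that follow are given at an unadjusted p under 0.05, with the share of all genes at that level as background. The comparisons share libraries and are not independent of each other.

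With WT and HET pooled (n = 4) against KO (n = 6), 5 of 34 members were at an unadjusted p under 0.05, against 6.3% of all genes tested, and all 5 were higher in the controls, against 4.05% of all genes in that direction. They were Msl2, Atp2c1, Topbp1, Rasa2 and Cep63, with an edgeR adjusted p of 0.744 each. Over the 34 members the median log2 difference was -0.002, with 17 members higher in controls, against -0.023 over all genes. For 3 members, Msl2, Atp2c1 and Rasa2, every control library was above every KO library, which held for 0.996% of all genes. The reverse order held for 0 members and for 0.524% of all genes. On the TPM scale the separation held for Msl2 (19.4 to 26.9 TPM in controls, 11.3 to 17.9 in KO) and Atp2c1 (58.4 to 69.6 and 30.2 to 57.3), whereas Rasa2 overlapped (39.7 to 46.8 and 23.5 to 42.8). The count of 5 became 3 (Msl2, Atp2c1 and Topbp1) without HET 1, without WT 2 or without KO 5.

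Msl2 encodes a subunit of the MSL complex, which directs acetylation of histone H4, and lies at chr9:101074101-101104800, 4.32 Mb from Zbtb38. It was at 71.8 and 57.6 CPM in WT, at 71.5 and 83.0 in HET, and in KO between 43.0 and 54.4 with a median of 49.9. The lowest control (WT 2) was thus close to the highest KO library (KO 5). Its log2 difference between pooled controls and KO was 0.53 (SE 0.127, adjusted p = 0.744), a fold of 1.44. DESeq2 gave an adjusted p of 0.0951 for Msl2, the only member it called of 34 with an adjusted p in this comparison, beside 0.143% of all genes.

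Atp2c1 encodes a calcium and manganese pump of the Golgi and is the farthest member, at chr9:105403539-105527319. It was at 122.9 and 124.2 CPM in WT, at 165.5 and 144.5 in HET, and in KO between 83.5 and 112.9 with a median of 101.5. Its log2 difference was 0.49 (SE 0.125, adjusted p = 0.744), a fold of 1.41. Its annotated body overlaps that of Aste1 on the opposite strand by 8691 bases, and whether reads were assigned by strand is not given in the sources used here.

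Topbp1, which encodes an activator of ATR at stalled replication forks, was at 250.1 and 231.1 CPM in WT, at 246.3 and 295.2 in HET, and in KO between 128.9 and 244.6 with a median of 181.8. The groups overlapped, because KO 5 was above WT 2. The log2 difference was 0.46 (SE 0.152, adjusted p = 0.744). Rasa2, a GTPase-activating protein that turns off Ras and the nearest member to Zbtb38, was at 93.4 and 101.2 CPM in WT, at 104.8 and 111.6 in HET, and in KO between 75.5 and 93.0 with a median of 90.5. WT 1 and KO 2 differed by less than 1 CPM, so that the groups were separated by a small margin, and the log2 difference was 0.23 (SE 0.0995, adjusted p = 0.744). Cep63, a centrosome protein needed for centriole duplication, was at 48.7 and 54.1 CPM in WT, at 46.2 and 47.1 in HET, and in KO between 36.7 and 48.2 with a median of 39.7. KO 2 was above both HET libraries, and the log2 difference was 0.26 (SE 0.119, adjusted p = 0.744).

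**Figure D2:**
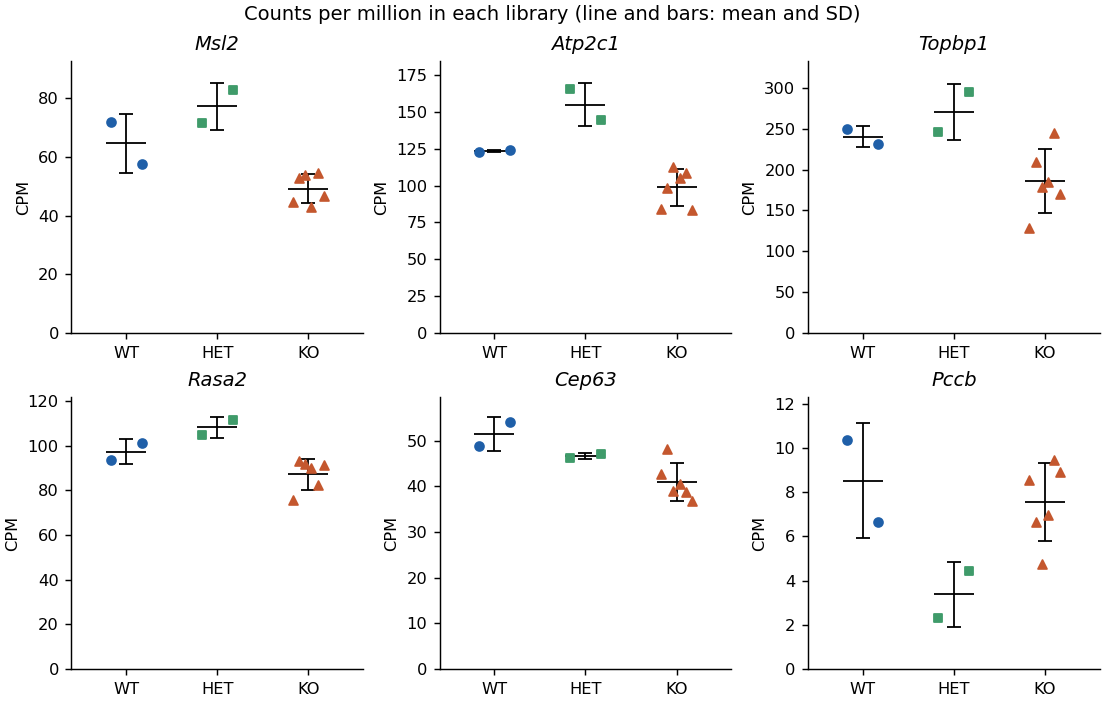
CPM of 6 members in each library, with the mean and SD of each genotype as a line and bars and the axes starting at 0. Controls lay above all KO libraries for Msl2, Atp2c1 and Rasa2, whereas Topbp1 and Cep63 overlapped and Pccb was lowest in the HET libraries (2.33 and 4.41 CPM).

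Of the 26 members tested within 5 Mb of Zbtb38, 2 were at an unadjusted p under 0.05 (Rasa2 and Msl2), and of the 8 beyond 5 Mb, 3 were (Cep63, Topbp1 and Atp2c1). Among the other genes within 10 Mb the count was 4 of 67, and on chromosome 9 as a whole, 61 of 770 genes or 7.92%. Among these 4 were Wdr82, Pik3r4 and Dnajc13, with log2 differences of 0.64 (SE 0.199), 0.38 (SE 0.152) and 0.40 (SE 0.183), each with an adjusted p of 0.744. No test of position was made.

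**Figure D3:**
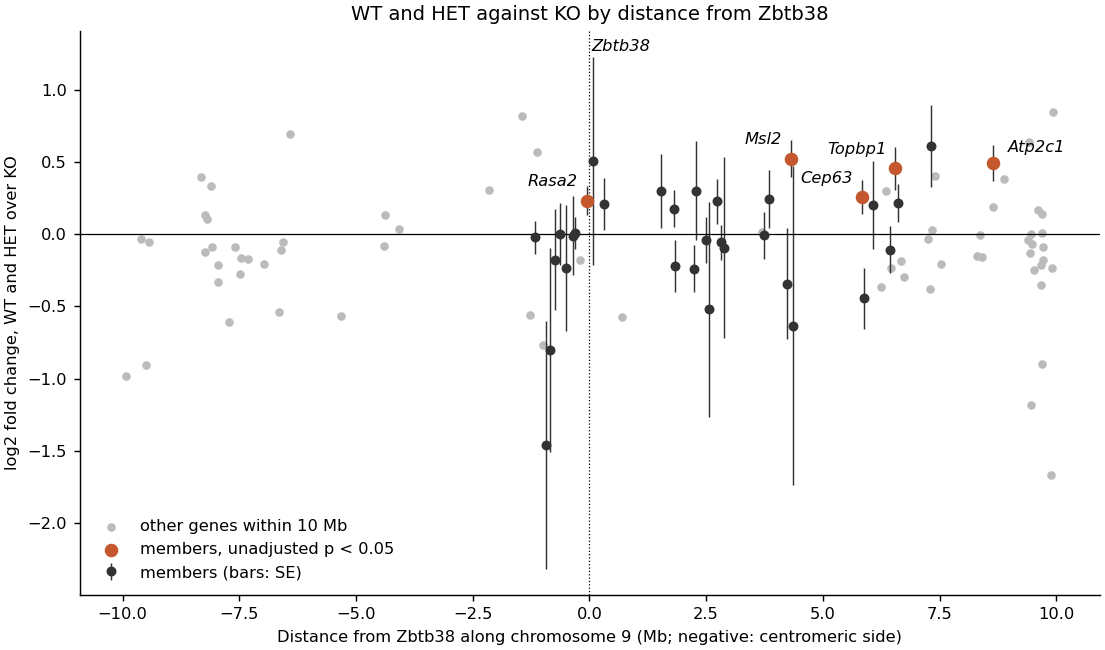
Log2 fold change of WT and HET over KO for the 34 members tested (points with SE bars) and the 67 other genes tested within 10 Mb (grey), against distance from Zbtb38 in Mb with the centromeric side negative. The 5 members at an unadjusted p under 0.05 all lie above 0 and are spread from -0.05 to 8.65 Mb.

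The nearest members had small differences or wide errors. Atp1b3, 318.328 kb away, was at 217.5 and 185.5 CPM in WT, at 196.0 and 219.8 in HET, and in KO between 177.6 and 253.1 with a median of 199.2. Its groups overlapped fully, with a log2 difference of 0.01 (SE 0.112). Slc25a36, a mitochondrial carrier of pyrimidine nucleotides, was at 31.9 and 29.9 CPM in WT, at 33.8 and 34.7 in HET, and in KO between 19.9 and 38.8 with a median of 26.6. The KO range enclosed all controls, and the log2 difference was 0.21 (SE 0.180). Tfdp2, a dimerization partner of E2F factors, was at 15.7 and 14.4 CPM in WT, at 10.5 and 13.0 in HET, and in KO between 7.25 and 18.8 with a median of 14.4. Its log2 difference was -0.01 (SE 0.272). Pxylp1, a phosphatase that acts on a xylose of proteoglycan chains, lies 70.505 kb from Zbtb38 on the telomeric side. It was at 2.497 and 2.11 CPM in WT, at 1.56 and 1.41 in HET, and in KO between 0.03 and 2.09 with a median of 1.32, and its log2 difference was 0.51 (SE 0.721). The lowest of these values, in KO 6, rests on 1 count.

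Acad11 and Anapc13 lay just outside the level of 0.05. Acad11, an acyl-CoA dehydrogenase, was at 10.8 and 15.3 CPM in WT, at 16.9 and 6.22 in HET, and in KO between 5.98 and 9.004 with a median of 8.56. HET 2 was within the KO range, and the log2 difference was 0.61 (SE 0.283, adjusted p = 0.744). Acad11 overlaps Ackr4 on the opposite strand by 42777 bases, with the same limit as for Atp2c1, and RP23-380A10.7 on its own strand by 12503 bases, so its level is uncertain. Anapc13 was at 31.3 and 29.0 CPM in WT, at 29.8 and 35.7 in HET, and in KO between 30.5 and 61.9 with a median of 36.9. KO 1 and KO 6 were the high libraries, and the log2 difference was -0.44 (SE 0.213, adjusted p = 0.744). Cep63 and Anapc13 are neighbours on opposite strands whose annotated ends overlap by 239 bases.

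By role, the values were mixed within each group. Among the 6 genes of DNA damage, chromatin and the cell cycle, 2 were at an unadjusted p under 0.05 (Msl2 and Topbp1), and Atr (log2 difference of -0.18, SE 0.351) and Stag1, a cohesin subunit (0.25, SE 0.199), were not. The 8 genes grouped as Ras and PI3-kinase signalling form a broad class that also holds Spsb4, Amotl2, Ryk and Ppp2r3a. Of these 8 genes, 5 were tested and 1 (Rasa2) was at that level. Pik3cb, a catalytic subunit of PI3-kinase, had a difference of 0.30 (SE 0.342) and Nck1, an adaptor of tyrosine kinase signals, of -0.01 (SE 0.163). In the 8 genes of membrane traffic, ion transport and cytoskeleton the count was 1 (Atp2c1). Trpc1, a cation channel, had the most negative difference, -1.46 (SE 0.861), from at most 57 counts in a library. In the 3 centrosome and cilium genes it was 1 (Cep63), with Cep70 at -0.04 (SE 0.157). None of the 6 mitochondrial and metabolic genes was at that level, nor any of the 3 genes of RNA processing and decay. These are Xrn1, the main 5′ to 3′ exoribonuclease of the cytoplasm (0.00, SE 0.216), Dbr1, which debranches intron lariats (-0.05, SE 0.122), and U2surp, a splicing factor (-0.02, SE 0.113). Faim, an inhibitor of Fas-induced cell death (-0.24, SE 0.164), Armc8 (0.23, SE 0.156) and Cdv3 (0.22, SE 0.133) were not at that level either.

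Transcript length moved with this comparison. Over all 13347 genes, Spearman's rho between the log2 difference and transcript length was 0.368, a description across genes, which are not independent replicates and which share the same 10 libraries. Among the 34 members tested rho was 0.064. With genes split by length into 5 equal classes, the median from the shortest to the longest class log2 difference was -0.22, -0.08, 0.02, 0.11 and 0.16, and the share at an unadjusted p under 0.05 and higher in controls was 0.112%, 0.412%, 1.87%, 6.52% and 11.3%. Msl2 (4430 bases) belongs to the longest class, Atp2c1 (3036 bases), Topbp1 (3518) and Rasa2 (3472) to the next, and Cep63 (2106) to the second shortest. Anapc13, with 494 bases, is in the shortest. Among the 10 members tested in the longest class 1 was at that level, and among the 10 in the next class 3 were.

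When the length trend was removed from each library, 4 members (Msl2, Atp2c1, Topbp1 and Cep63) were at an unadjusted p under 0.05, against 3.74% of all genes, and no member passed the adjusted threshold. The log2 difference became 0.35 (SE 0.126) for Msl2, 0.41 (SE 0.109) for Atp2c1, 0.34 (SE 0.121) for Topbp1 and 0.28 (SE 0.108) for Cep63, each with an edgeR adjusted p of 0.999. Rasa2 was at 0.11 (SE 0.0885). Acad11 and Anapc13, just outside that level without this step, were at 0.49 (SE 0.285) and -0.14 (SE 0.139). With a term for Y-linked transcripts, the same 5 members were at that level, against 5.29% of all genes, with log2 differences from 0.23 (Rasa2) to 0.52 (Msl2).

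**Figure D4:**
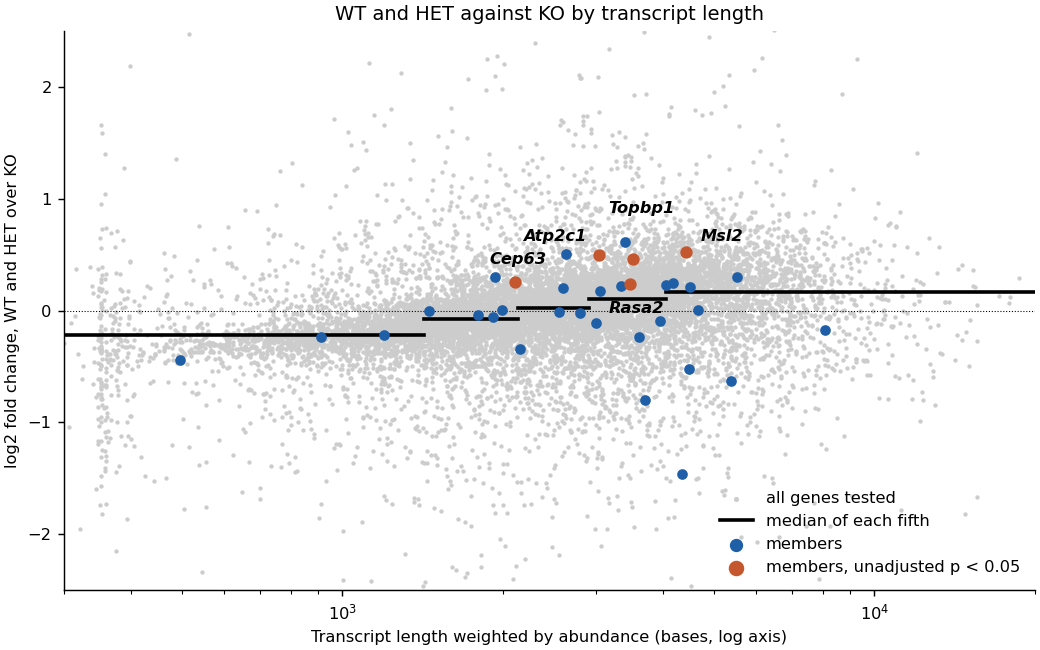
Log2 fold change of WT and HET over KO against transcript length for all genes tested (grey) and the members (blue, with those at an unadjusted p under 0.05 in red), on a log axis of bases. Black lines are the median of each of the 5 length classes, from -0.22 in the shortest to 0.16 in the longest, and a few genes lie beyond the axes.

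Markers of other cells were also measured in these sorts. Summed over 10 T cell genes the level was 286 CPM in both WT libraries, 193 and 197 in HET and 188 to 277 in KO. For 8 myeloid genes it was 544 to 654 CPM in WT, 188 to 194 in HET and 168 to 832 in KO, and for 6 naive B cell genes 1105 to 1155, 781 to 782 and 684 to 1554. For 6 plasma cell genes it was 1831 to 2082 CPM in WT, 1599 to 1727 in HET and 1604 to 2377 in KO. For 6 erythroid genes it was 44.8 to 57.1, 35.5 to 38.8 and 56.1 to 96.5 CPM, and 3 of the 4 erythroid genes tested were at an unadjusted p under 0.05 with the pooled controls lower than KO, while Alas2 was at 0 in some libraries. Of the other lists, 1 of 6 plasma cell genes was at that level in this comparison and none of the T cell, myeloid or naive B cell genes. No marker gene passed the adjusted threshold in any of the 5 comparisons. Their part in the differences of the members was not tested. In bulk RNA, fewer cells of a type and less RNA per cell cannot be told apart.

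With WT alone (n = 2) against KO (n = 6), 2 of 37 members were at an unadjusted p under 0.05, against 2.19% of all genes tested. Msl2 was 0.40 higher in WT on the log2 scale (SE 0.165) and Acad11 0.70 higher (SE 0.296), with an edgeR adjusted p of 0.999 each. The median over members was 0.005 against -0.014 over all genes. With the length trend removed the count was 0, with Msl2 at 0.25 (SE 0.169) and Acad11 at 0.58 (SE 0.297), and the count was also 0 without KO 4 and 1 without WT 1. It was likewise 0 with the term for Y-linked transcripts. In this comparison 4 of 10 T cell genes were at an unadjusted p under 0.05, with a list median of 0.95 higher in WT on the log2 scale, and their part in the result was not tested. Atp2c1 had a difference of 0.32 (SE 0.153) and Rasa2 of 0.16 (SE 0.136). Beside the members, Tbc1d2b and Slc9a9 were among the genes at that level within 10 Mb, with log2 differences of 1.31 (SE 0.513) and 1.35 (SE 0.597) and an adjusted p of 0.999 each.

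With Cre in both groups, HET (n = 2) against KO (n = 6), 6 of 37 members were at an unadjusted p under 0.05, against 10.2% of all genes tested. Higher in HET were Atp2c1 by 0.65 on the log2 scale (SE 0.143, adjusted p = 0.255), Msl2 by 0.65 (SE 0.154, adjusted p = 0.264), Topbp1 by 0.54 (SE 0.192, adjusted p = 0.404), Copb2 by 0.34 (SE 0.150, adjusted p = 0.485) and Rasa2 by 0.31 (SE 0.125, adjusted p = 0.443). Copb2 was at 268.9 and 246.3 CPM in HET, above all KO libraries (165.4 to 234.5, median 208.6), while the WT libraries at 219.2 and 190.0 fell within the KO range. Pccb, the beta subunit of propionyl-CoA carboxylase, was lower in HET, with a log2 difference of -1.16 (SE 0.419, adjusted p = 0.409). It was at 2.33 and 4.41 CPM in HET, between 4.76 and 9.43 in KO with a median of 7.77, and at 10.4 and 6.67 in WT. HET 2 and KO 3 were close in CPM, and in TPM their order turned, with 2.89 in HET 2 and 2.79 in KO 3. The count of 6 became 3 without HET 1.

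DESeq2 called 3 of the 34 members with an adjusted p in HET against KO, beside 3.54% of all genes. These were Atp2c1 (adjusted p = 0.00457), Msl2 (0.00977) and Pccb (0.0993). Markers of other cells moved with this comparison. At an unadjusted p under 0.05 and lower in HET by the list median were 4 of 10 T cell, 4 of 8 myeloid, 3 of 6 erythroid, 4 of 6 naive B cell and 1 of 6 plasma cell genes, with median log2 differences of -1.13, -1.48, -3.19, -1.21 and -0.41. Summed erythroid markers were lower in both HET libraries than in every other library, and summed T cell, myeloid and naive B cell markers were lower than in all but 1 KO library each. The part of these in the differences of the members was not tested. Both HET libraries had Y-linked genes under 3 CPM. With a term for Y-linked transcripts Atp2c1 had 0.63 (SE 0.173), Msl2 0.69 (SE 0.184) and Pccb -1.03 (SE 0.463), while Rasa2 and Copb2 were no longer at an unadjusted p under 0.05, as was also so with the length trend removed.

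**Figure D5:**
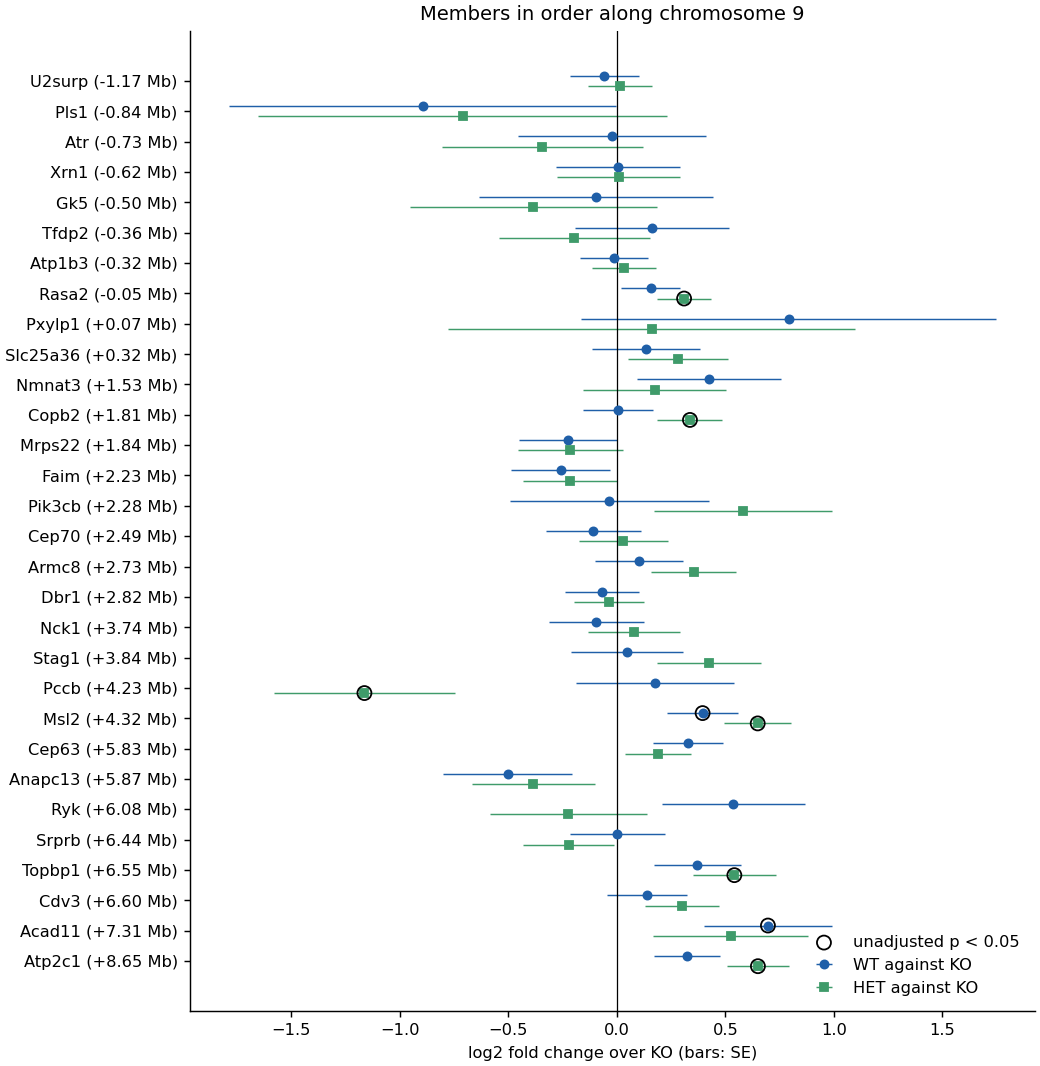
Log2 fold change over KO, with SE bars, of the 30 members with a median of at least 0.5 TPM, for WT (circles) and HET (squares), in order along chromosome 9 with the distance from Zbtb38 beside each name. Open rings mark an unadjusted p under 0.05, and both comparisons use the same 6 KO libraries.

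Between WT and HET (n = 2 each), 1 of 37 members was at an unadjusted p under 0.05, against 6.42% of all genes tested. Pccb was 1.34 higher in WT on the log2 scale (SE 0.485, adjusted p = 0.709). The count was 0 without HET 1 or WT 1, and 2 without HET 2 or WT 2. With the term for Y-linked transcripts, which were high in both WT and low in both HET libraries, Pccb was no longer at that level (1.08, SE 0.634, adjusted p = 0.677), and Mras, with counts in 2 libraries, was the member that was. Of the markers, 6 of 10 T cell, 6 of 8 myeloid, 3 of 6 erythroid, 3 of 6 naive B cell and 1 of 6 plasma cell genes were at an unadjusted p under 0.05, with list medians higher in WT, and their part in the result was not tested. The median over members was -0.044, against 0.010 over all genes.

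In HET against the mean of WT and KO, the contrast of 1 floxed allele with 2, 4 of 37 members were at an unadjusted p under 0.05, against 8.92% of all genes tested. Atp2c1 was higher in HET by 0.49 (SE 0.144, adjusted p = 0.438), Msl2 by 0.45 (SE 0.155, adjusted p = 0.455) and Copb2 by 0.33 (SE 0.150, adjusted p = 0.555). Pccb differed by -1.25 (SE 0.421, adjusted p = 0.450). DESeq2 called Atp2c1 (adjusted p = 0.0675) and Pccb (0.0757), 2 of 34 members, beside 2.74% of all genes. This contrast also differs in Vav-Cre, which both HET libraries and the KO but not the WT libraries had, and in Y-linked level, and Cre cannot be told apart from the number of floxed alleles in it. With the term for Y-linked transcripts the count was 2 (Msl2 and Atp2c1), and Pccb had -1.06 (SE 0.510). Of the markers, 6 of 10 T cell, 6 of 8 myeloid, 3 of 6 erythroid and 4 of 6 naive B cell genes were at that level, with list medians lower in HET, and their part was not tested. Without HET 1 the count at an unadjusted p under 0.05 was 1, and without HET 2 or WT 2 it was 2. The median over the 37 members was 0.006, against -0.033 over all genes, and the nearest members had differences of 0.23 (Rasa2, SE 0.125), -0.23 (Pxylp1, SE 0.957) and 0.04 (Atp1b3, SE 0.148).

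Genes that work with the members, most of them on other chromosomes, were listed with their functions in mind. In the comparison of pooled controls with KO, no gene of the 9 lists passed the adjusted threshold. At an unadjusted p under 0.05 were 1 of 10 ATR checkpoint genes, 3 of 10 cohesin genes, 5 of 16 PI3-kinase and Ras genes, 1 of 7 genes of the MSL and related acetylase complexes, 1 of 8 centrosome duplication genes, 3 of 8 COPI genes, 1 of 14 anaphase-promoting complex genes, 1 of 12 E2F genes and 1 of 10 mRNA decay genes, beside the 6.3% of all genes. The list medians of the log2 difference were 0.02, 0.21, 0.22, 0.05, 0.16, 0.10, -0.06, 0.12 and 0.09 in the same order. With WT alone against KO, 1 of 10 cohesin genes and 0 of 16 PI3-kinase and Ras genes were at that level, beside 2.19% of all genes. Their list medians were 0.07 and 0.02. In HET against KO the counts were 4 and 7, beside 10.2% of all genes, with list medians of 0.29 and 0.33. Pik3cd, the PI3-kinase subunit that dominates in B cells, was 0.58 higher in controls (SE 0.177), and Kansl1, a scaffold of the related NSL complex, 0.47 higher (SE 0.132), each with an adjusted p of 0.744. Tipin, which stabilizes replication forks, was at -0.26 (SE 0.117) and Cope, a COPI subunit, at -0.21 (SE 0.0955).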

How the data were processed

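SMART-Seq v4 libraries were made and sequenced as paired-end 150-base reads by a service provider, and the authors quantified Gencode vM17 transcripts with Salmon (0.9.1 in the submitters' processing notes, which also name DESeq2 2.11.40.6). The deposited tables hold, for each transcript, estimated counts without normalization and TPM. These were summed per gene, counts were rounded, and positions were taken from Gencode vM21 (22349 of 22380 genes). Of the transcript values 46.8% were not whole, and totals ran from 26612431 to 41059082.

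Each comparison was fitted over all genes with edgeR 4.0.16 (quasi-likelihood test, TMM, filterByExpr, Benjamini-Hochberg adjustment at 0.1) in R 4.3.3. WT against KO used its own libraries, pooled controls against KO used all 10 as 2 groups, and the others used a term per genotype. Alternatives were DESeq2 1.42.0, its size factors in edgeR, limma 3.58.1 on log2 TPM with a pseudocount of 1 or 0.1, length-scaled counts, the count filter removed or raised to 10 counts in every library, immunoglobulin genes left out, a replicate block, robust dispersion, other libraries in or out of the fit, and each library left out. Removal of the length trend, a term for Y-linked transcripts and counts at an unadjusted p under 0.05 under each alternative were chosen after seeing the data. The fits were tested on simulated data.

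The members were chosen by position, and how they were selected among the genes of the window is not given. Both the members and the gene lists were chosen with earlier results of these data known. Values per library are given for the 6 nearest members, up to 6 members with the smallest unadjusted p under 0.05 in each comparison, and the 3 most and 3 least abundant. Some items are not reported here. Same-group libraries differed beyond sampling noise. The study gives n as mice, so p-values measure the spread between mice and their libraries.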

Additional observations from a re-analysis of the deposited data

Results flagged for a closer look

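In the 4 control libraries, 2 members had 1 library far from the other 3. Nmnat3, an enzyme of NAD synthesis, was at 9.56 CPM in HET 1 and between 13.996 and 14.12 in the other controls. Nck1 was at 51.9 CPM in HET 1 and between 41.6 and 42.4 in the other controls. Of 62 groups checked 2 met this criterion, while chance flags about 1 in 20 groups, or 3.1 here.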

How the results depend on the processing

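No member passed the adjusted threshold under any edgeR or limma alternative, nor with any library left out. DESeq2 called 1 member in WT and HET against KO, 3 in HET against KO and 2 in HET against the mean of WT and KO. In WT and HET against KO, the count at an unadjusted p under 0.05 (5) ran from 3 to 6 with a library left out and was 3 without HET 1, WT 2 or KO 5, and Msl2, Atp2c1 and Topbp1 were at that level in each of these fits. In WT against KO (2), it was 1 with limma on either TPM scale, 0 with a replicate block, with the length trend removed or with the Y-linked term, and 0 to 2 with a library left out (0 without KO 4, 1 without WT 1). In HET against KO (6), it was 7 with a replicate block and 4 with the length trend removed or with the Y-linked term, and 3 to 6 with a library left out (3 without HET 1). In WT against HET (1), it was 2 with a replicate block, 5 with only these 4 libraries in the fit, 3 with the length trend removed and 1 with the Y-linked term (Mras in place of Pccb), and 0 to 2 with a library left out. In HET against the mean of WT and KO (4), it was 2 with limma on either scale, 7 with a replicate block, 2 with the Y-linked term, and 1 to 5 with a library left out.

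Replicate numbers are shared by the groups, and the deviations of same-numbered libraries had r from -0.008 to 0.127. From so few libraries it cannot be told whether the numbers pair samples. They were not used as pairs outside the replicate block. With the replicate block Atp1b3 in WT and HET against KO was -0.081 (0.008 without the block) and Tfdp2 0.27 (-0.009 without it), and 0 members passed the adjusted threshold in each comparison. With a library left out these ran from -0.027 to 0.081 for Atp1b3 and from -0.14 to 0.11 for Tfdp2, so no direction was given for either. The cause of these changes was not tested. With 2 libraries each in WT and HET, differences such as that of Pccb (73 and 122 counts in HET) rest on few libraries. That of Pxylp1 also rests on low counts, with 1 in KO 6.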
